A study of Homo sapiens with 9 samples.

Results

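The glycolysis, lactate and pentose phosphate genes were taken as 31 named genes of a table of 58735 genes, chosen by symbol: 15 enzymes of the glycolytic steps, 2 lactate dehydrogenase subunits, 4 glucose and lactate transporters, 3 PFKFB enzymes, PDK1 and PDHA1 at the entry to mitochondrial pyruvate oxidation, and 5 enzymes of the pentose phosphate pathway. All 31 were found, and all 31 were among the 11845 genes that reached 1 FPKM in at least 3 libraries and were tested. Glycolysis splits glucose to pyruvate in the cytosol and yields ATP and NADH. Lactate dehydrogenase turns pyruvate into lactate and regenerates NAD, and monocarboxylate transporters carry lactate across the plasma membrane. The pentose phosphate pathway branches off at glucose phosphate and supplies NADPH and ribose phosphate, and many of these genes are known targets of the hypoxia-inducible factors and are active in many tumours.

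Expression had been measured by RNA sequencing of poly-A selected RNA from GBM43, a human glioblastoma cell line, grown in hyaluronic acid gel devices through which cells can invade. Levels are FPKM, fragments per kilobase of gene, scaled by the authors with a factor for each library. That divisor was 0.769 to 1.23 times the library's fragments in genes. The levels are per length of all annotated exon bases of a gene, so they can be compared between genes only roughly. There were 9 libraries in 3 groups of 3. The MK801 libraries came from devices given 50 µM MK801, which blocks the open channel of NMDA receptors, a class of glutamate receptor, with core and invaded cells pooled because few cells had invaded. The invasive libraries came from cells that had left the core of control devices, cut away with a scalpel, and the core libraries from the cells that stayed behind in control devices. What control devices were given is described in 1 place as culture medium and in another as DMSO, and every gel was digested with hyaluronidase before RNA extraction. MK801 therefore differs from either control group in drug and in fraction, and these cannot be told apart. The labels do not say whether the libraries within a group were grown as separate cultures, and p-values then measure only the spread among these libraries, which may be technical spread. In bulk RNA, fewer cells of a type and less RNA per cell cannot be told apart.

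The libraries held 15584610 to 54409666 fragments in genes. The number of genes detected at an equal depth was 15161 to 21517 in MK801, 15975 to 19140 in invasive and 20322 to 21414 in core libraries, and MK801 replicate 1 and invasive replicate 2 detected the fewest. The sum of FPKM over all genes was 233614 to 445633 in MK801, 287494 to 383665 in invasive and 229449 to 271938 in core libraries. VIM (897 to 2101 FPKM), CD44, EGFR, PDGFRA and SOX2 were detected, while GFAP, OLIG2, CHI3L1, S100B and NES stayed under 1 FPKM in every library, so 5 of 10 glioma markers marked these cells. Neuron and oligodendrocyte markers were all under 1 FPKM, and CSF1R was the only 1 of 7 immune markers to reach 1 FPKM, with 1.19 to 4.55 FPKM in MK801, 3.98 to 5.74 in invasive and 1.71 to 2.46 in core libraries. The summed level of the immune markers was 1.76 to 4.83 FPKM in MK801, 4.14 to 5.84 in invasive and 1.82 to 2.78 in core libraries. Of 5 endothelial markers, PECAM1 and CDH5 reached 1 FPKM, and their summed level was 1.34 to 1.596 FPKM in MK801, 1.78 to 5.32 in invasive and 1.34 to 1.496 in core libraries. CDH5 had 0.0354 to 0.558 FPKM in MK801, 0.758 to 3.15 in invasive and 0.00591 to 0.0729 in core libraries, while VWF, KDR and CLDN5 stayed under 1 FPKM. The summed level of 7 fibroblast and pericyte markers was 82.9 to 194 FPKM in MK801, 349 to 615 in invasive and 70.1 to 144 in core libraries. It came mostly from COL1A1, COL1A2 and PDGFRB, while DCN and LUM stayed under 2 FPKM. COL3A1 had 0.0311 to 0.443 FPKM in MK801, 1.59 to 3.75 in invasive and 0.308 to 0.612 in core libraries. The pericyte marker RGS5 went the other way, with 0 to 0.460 FPKM in MK801, 0.0570 to 0.166 in invasive and 0.385 to 0.589 in core libraries. The part of these markers in the results was not tested.

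The promoters of 28 of the 31 genes were found in the RefSeq table of build GRCh38.p14, as 54 windows that run from 250 bases before to 50 bases after a start site. They are shown because the hypoxia-inducible factors bind a core of 5 bases, ACGTG or GCGTG, in many genes of this pathway. Searched on both strands, at least 1 match stood in 34 of the 54 windows (63.0%), against 48.4% of 35116 windows of all genes, and ACGTG stood in 35.2% of the members' windows, against 21.4% of all. The median GC content of the members' windows was 68.7%, against 58.7% over all windows. A match is a description of these letters and not a binding site. The windows below belong to ENO1 and PGD, whose invasive libraries lay above core, to LDHA, whose FPKM did not separate, and to RPIA, whose invasive libraries lay below core. They were chosen after the values were seen. Capitals mark ACGTG or GCGTG or, where the match is on the other strand, CACGT or CACGC, and CACGTG counts as 2 overlapping matches.
ENO1 promoter, chr1:8878637-8878936, minus strand, 2 matches: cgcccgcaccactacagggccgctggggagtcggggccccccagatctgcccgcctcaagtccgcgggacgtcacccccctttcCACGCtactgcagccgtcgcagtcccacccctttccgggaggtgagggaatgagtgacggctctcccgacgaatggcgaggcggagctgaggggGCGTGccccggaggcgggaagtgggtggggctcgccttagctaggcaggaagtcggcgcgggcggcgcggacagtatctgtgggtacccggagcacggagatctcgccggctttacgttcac
PGD promoter, chr1:10398814-10399113, plus strand, 3 matches: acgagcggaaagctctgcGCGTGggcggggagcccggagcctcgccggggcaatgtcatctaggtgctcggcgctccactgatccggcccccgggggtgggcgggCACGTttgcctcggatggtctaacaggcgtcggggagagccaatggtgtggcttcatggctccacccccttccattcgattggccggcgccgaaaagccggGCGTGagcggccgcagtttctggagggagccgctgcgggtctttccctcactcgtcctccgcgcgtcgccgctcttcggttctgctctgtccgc
LDHA promoter, chr11:18394313-18394612, plus strand, 6 matches: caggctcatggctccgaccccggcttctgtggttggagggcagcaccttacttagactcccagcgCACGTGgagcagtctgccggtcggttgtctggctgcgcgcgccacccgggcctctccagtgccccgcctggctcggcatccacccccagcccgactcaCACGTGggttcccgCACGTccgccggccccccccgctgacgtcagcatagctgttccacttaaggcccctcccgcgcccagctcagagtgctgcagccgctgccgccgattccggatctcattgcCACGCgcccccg
RPIA promoter, chr2:88691423-88691722, plus strand, 1 match: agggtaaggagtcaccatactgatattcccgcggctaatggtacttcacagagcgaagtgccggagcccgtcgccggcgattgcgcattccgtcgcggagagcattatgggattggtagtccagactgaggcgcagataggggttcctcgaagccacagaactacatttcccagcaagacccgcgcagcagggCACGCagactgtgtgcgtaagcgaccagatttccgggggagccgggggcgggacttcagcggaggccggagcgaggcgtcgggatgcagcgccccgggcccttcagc
The LDHA window held 2 copies of the palindrome CACGTG and 6 matches, a number that among the members' windows was reached by 1 window of HK2 as well and passed by none. LDHA was printed as a gene whose FPKM did not separate the control fractions, so its small FPKM difference follows from that choice. As TPM its invasive libraries lay below core without overlap.

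The levels spanned more than 3 orders of magnitude. GAPDH was the highest, with a mean of 2333 FPKM over the 9 libraries, followed by ENO1 (1873 FPKM), PGK1 (975 FPKM), TPI1 (615 FPKM), PKM (613 FPKM) and SLC2A1 (572 FPKM). ALDOC (311 FPKM), LDHA (261 FPKM), PGAM1 (258 FPKM) and ENO2 (171 FPKM) followed. PFKP, HK1, SLC2A3, TKT and PFKFB3 averaged 55.7 to 104 FPKM, and PDK1 (2.48 FPKM) and PFKFB2 (1.28 FPKM) were the lowest. Neighbours in this order, such as TPI1 and PKM, lay well within each other's range. Among isozymes, PFKP was the highest phosphofructokinase, HK1 the higher hexokinase, ENO1 the higher enolase and LDHA the higher lactate dehydrogenase subunit in each of the 9 libraries.

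**Figure D1:**
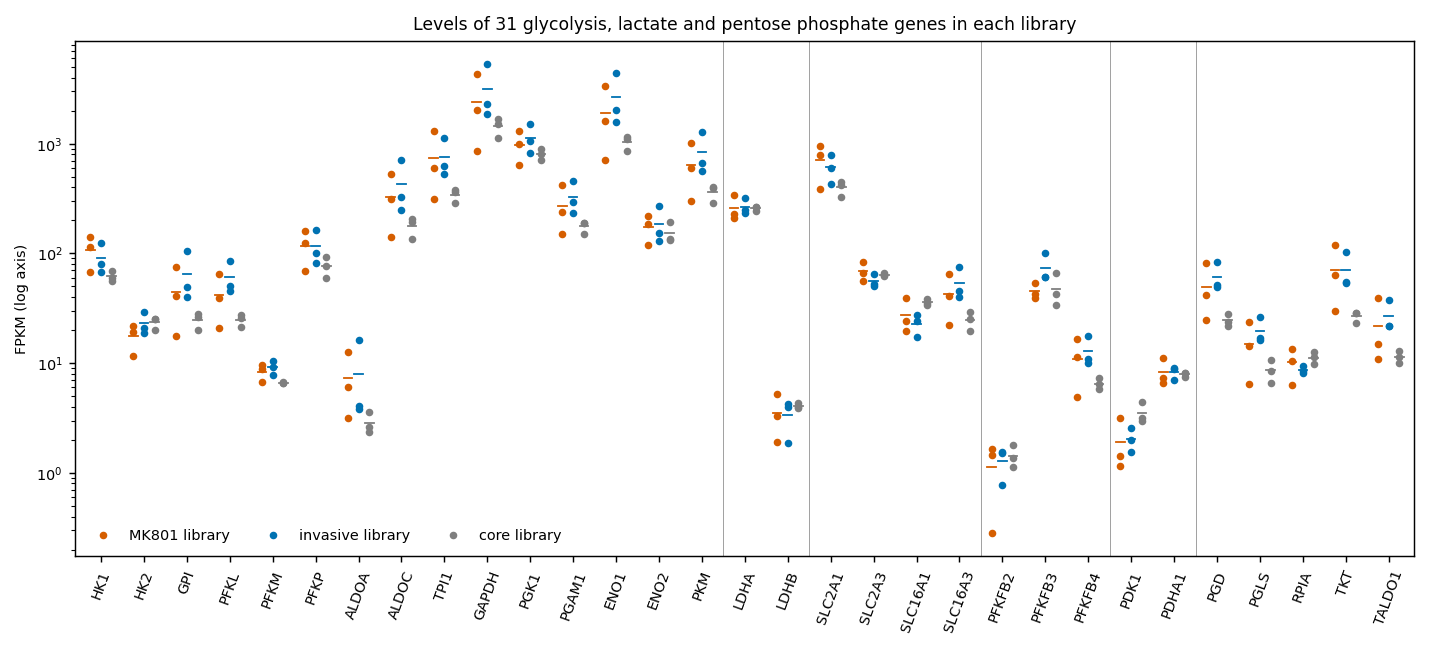
FPKM of each of the 31 genes in each library on a log axis (points: MK801, then invasive, then core libraries; short lines: group means of 3 libraries; vertical lines part the roles). GAPDH and ENO1 are the highest genes, core libraries lie close together, and the MK801 libraries spread widely, from 852 to 4347 FPKM for GAPDH.

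Invasive against core cells was the comparison in which these genes separated most often. By value, 24 of the 31 genes were higher and 7 lower in invasive than in core libraries, with a median difference of 0.65 on the log2(FPKM + 1) scale, where the median of all tested genes was -0.02. That scale understates changes of low genes. The FPKM of the 2 groups did not overlap for 19 of the 31 genes, 16 above and 3 below core. Over all tested genes, 32.0% lay above without overlap and 32.8% below, or 64.8% in either direction, against 51.6%, 9.68% and 61.3% of the members, so the members separated about as often as genes did in general and lay above more often than below. No member and no other gene passed an adjusted p of 0.05 in the limma fit of all 9 libraries (0 of 11845, or 0.0%), where 11 members and 4461 genes in all had p under 0.05 before adjustment. Voom on recovered fragments called 0 as well. The smallest adjusted p of a member was 0.106, shared by TKT, PGD and PFKL. Leaving out MK801 replicate 1 gave 12 members past the threshold (39.5% of all genes), and leaving out MK801 replicate 3 gave 14 (41.3% of all genes). Those libraries are outside this comparison and enter it through the shared estimate of the spread.

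**Figure D2:**
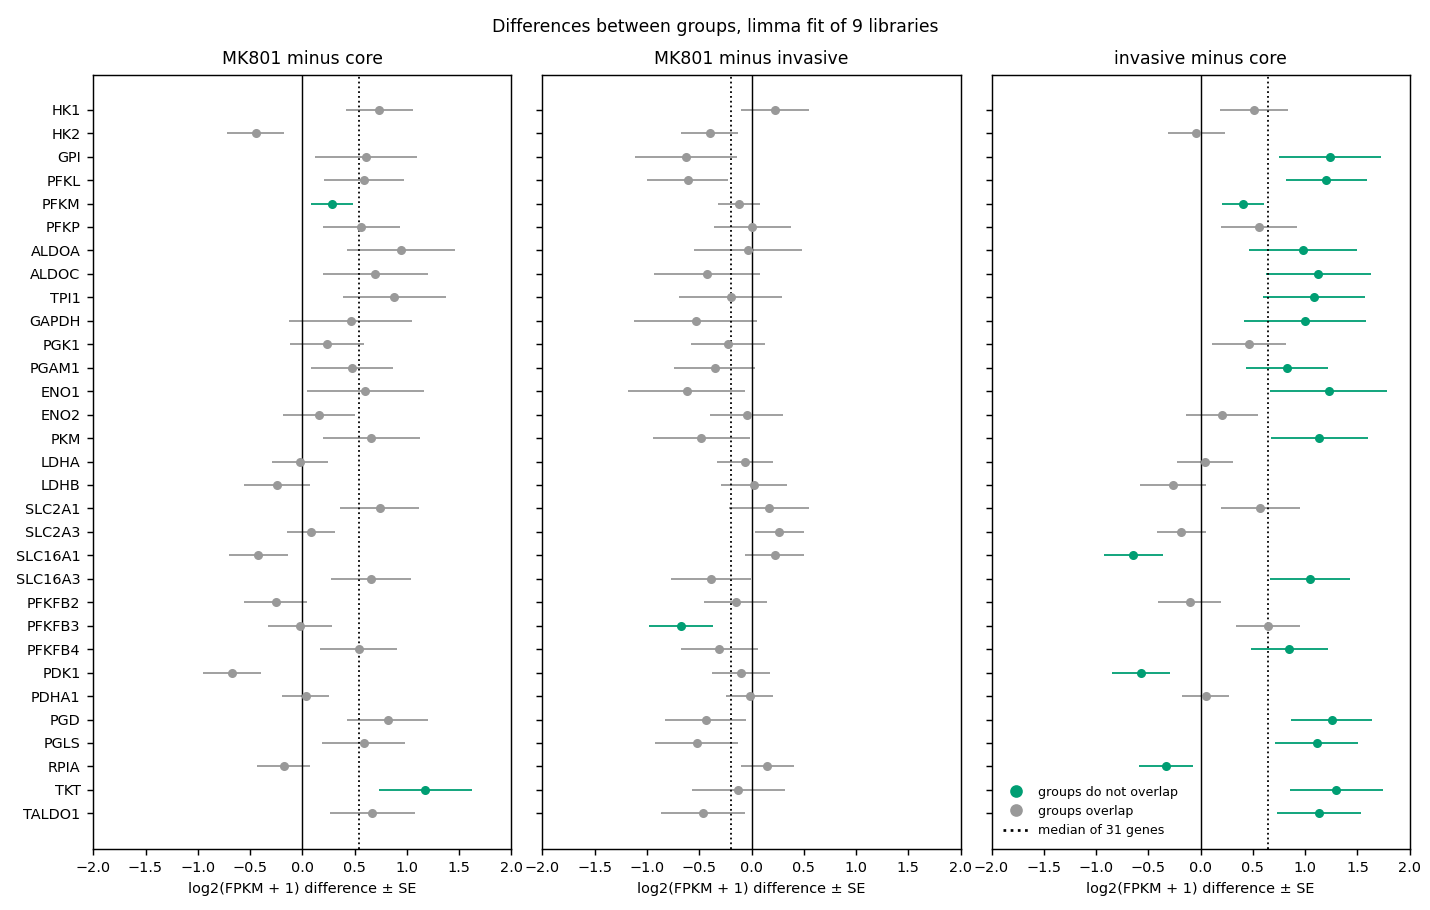
Difference of each gene between groups, in log2(FPKM + 1), with its standard error from the limma fit of 9 libraries (left, MK801 minus core; middle, MK801 minus invasive; right, invasive minus core; green points, FPKM of the groups do not overlap; dotted line, median of the 31 genes). The medians are 0.54, -0.20 and 0.65, and none of the 31 genes passed the adjusted threshold in any panel. Under the 6 scalings of the values that were compared, 11 genes keep a positive and 2 a negative sign in the right panel. The share of all tested genes that do so was not computed.

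The fit of the 6 control libraries alone, which leaves out the widely spread MK801 libraries, called 16 members between invasive and core cells, 14 higher and 2 lower. In that fit 52.2% of all tested genes passed, 26.3% higher and 25.9% lower, against 45.2% and 6.45% of the members. The 14 were GPI, PFKL, PFKM, ALDOC, TPI1, PGAM1, ENO1, PKM, SLC16A3, PFKFB4, PGD, PGLS, TKT and TALDO1, and the 2 were SLC16A1 and PDK1. GAPDH missed the threshold there, with a limma adjusted p of 0.061. The replicate numbers of invasive and core libraries may mark shared devices, although no label states it, and as a block they gave 6 members past the threshold in the fit of 9 libraries (21.3% of all genes). With the 6 control libraries alone the block gave 22, 20 higher and 2 lower, where 60.2% of all genes passed. The 6 further genes were HK1, PFKP, ALDOA, GAPDH, SLC2A1 and PFKFB3, all higher. Values rescaled to the same sum per library (TPM) also gave 16 in the control libraries without the block, 12 higher and 4 lower, where 49.1% of all genes passed. With each library's trend over GC content removed 3 passed, PGD (adjusted p = 0.015), TKT (0.030) and TALDO1 (0.045), where 18.2% of all genes passed (limma, the 6 control libraries). With the block as well 7 passed, GPI, PFKL, PGK1, ENO1, PKM, PGD and TKT, where 21.6% of all genes passed. In simulated data with 200 changed genes, limma recovered 44% of 2-fold and 99% of 4-fold changes. This held for the fit of 9 libraries and for that of the 6. Of their calls, 10.1% and 11.2% were false, more than the nominal share. Apart from the changed genes, the simulated libraries shared the same mean profile and dispersion, without the shifts between libraries seen here. These shares therefore need not hold for the real fits.

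Of the 15 enzymes of the glycolytic steps, 14 were higher by value in invasive cells, with a median of 0.97. Wholly above core lay 10 and wholly below 0, where 32.0% and 32.8% of all tested genes did. Of the 14 higher by value, 7 (GPI, PFKL, ALDOC, TPI1, PGAM1, ENO1 and PKM) stayed higher under all 6 scalings. HK1, PFKM, PFKP, ALDOA, GAPDH, PGK1 and ENO2 were lower under at least 1 of them. HK1 had 141, 114 and 67.8 FPKM in MK801 libraries, 80.96, 125 and 67.5 in invasive libraries and 59.4, 69.4 and 56.2 in core libraries. HK1, which traps glucose as glucose phosphate, overlapped between all groups. HK2 had 11.6, 21.7 and 19.2 FPKM in MK801 libraries, 29.1, 18.99 and 21.1 in invasive libraries and 25.4, 20.2 and 25.1 in core libraries. HK2, the other hexokinase and a known target of hypoxia-inducible factors, was the only glycolytic enzyme below core by value in both comparisons with core. Its invasive minus core difference was -0.04 ± 0.27 SE, limma adjusted p = 0.907, and that sign turned once the genes detected per library entered as a covariate.

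GPI had 75.5, 40.6 and 17.8 FPKM in MK801 libraries, 49.3, 104 and 40.2 in invasive libraries and 26.3, 27.9 and 20.2 in core libraries. GPI interconverts glucose phosphate and fructose phosphate, and its invasive libraries all lay above core (1.23 ± 0.49 SE, limma adjusted p = 0.116). PFKL had 65.3, 39.5 and 20.7 FPKM in MK801 libraries, 51.0, 84.7 and 45.6 in invasive libraries and 27.6, 25.9 and 21.2 in core libraries. PFKL, the liver form of phosphofructokinase, which catalyses the committed step, likewise separated (1.20 ± 0.39 SE, limma adjusted p = 0.106). PFKM had 9.55, 8.80 and 6.70 FPKM in MK801 libraries, 9.14, 10.4 and 7.87 in invasive libraries and 6.62, 6.70 and 6.54 in core libraries. PFKM, the muscle form, was the most even gene within core. Its invasive libraries lay above core by small amounts (0.40 ± 0.20 SE, limma adjusted p = 0.158). Its MK801 libraries lay above core only narrowly, with MK801 replicate 3 nearly tied with core replicate 2 (6.703 against 6.700 FPKM). The MK801 minus core difference was 0.28 ± 0.20 SE, limma adjusted p = 0.341. As TPM, PFKM overlapped core in both comparisons. PFKP had 160.1, 125 and 69.5 FPKM in MK801 libraries, 101, 164 and 82.1 in invasive libraries and 76.5, 93.2 and 59.6 in core libraries. The platelet form PFKP, the highest of these isozymes, overlapped between all groups (0.56 ± 0.37 SE, limma adjusted p = 0.253).

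ALDOA had 12.6, 6.04 and 3.15 FPKM in MK801 libraries, 4.10, 16.2 and 3.81 in invasive libraries and 2.62, 3.57 and 2.37 in core libraries. ALDOC had 526, 314 and 142 FPKM in MK801 libraries, 325, 708 and 248 in invasive libraries and 194, 207 and 136 in core libraries. The aldolases split fructose bisphosphate, and both lay above core in every invasive library. The differences were 0.97 ± 0.52 SE, limma adjusted p = 0.173 for ALDOA and 1.13 ± 0.50 SE, limma adjusted p = 0.131 for ALDOC. The low ALDOA level is uncertain, because 53.5% of its annotated exon bases are shared with other genes, 42.3% with AC093512.2, which itself had 0.606 to 1.93 FPKM. How the counting treated such shared bases is not given in the sources used here. TPI1 had 1310.2, 604 and 312 FPKM in MK801 libraries, 624, 1128 and 532 in invasive libraries and 359.8, 378 and 289 in core libraries. TPI1, which interconverts the triose phosphates, was highest in MK801 replicate 1, and its invasive libraries lay above core (1.08 ± 0.49 SE, limma adjusted p = 0.133).

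GAPDH had 4347, 2014 and 852 FPKM in MK801 libraries, 2298, 5315 and 1858 in invasive libraries and 1514, 1679 and 1123 in core libraries. GAPDH (chr12:6533927-6538374, plus strand), which oxidises glyceraldehyde phosphate and makes NADH, lay above core in all 3 invasive libraries, while the MK801 libraries ran from below the lowest core library to above the highest. The invasive minus core difference was 0.996 ± 0.59 SE, limma adjusted p = 0.208, and its sign turned once the genes detected per library entered as a covariate. An antisense gene, AC006064.4, covers 14.2% of the exon bases of GAPDH, and whether strand was used in counting is not given in the sources used here. PGK1 had 1305, 1004 and 642 FPKM in MK801 libraries, 1067, 1520.0 and 825 in invasive libraries and 811, 895 and 706 in core libraries. PGK1, which makes the first ATP of the pathway, overlapped between groups (0.46 ± 0.35 SE, limma adjusted p = 0.319), and its TPM in MK801 libraries lay below core without overlap. PGAM1 had 418, 237 and 151 FPKM in MK801 libraries, 294, 456 and 232 in invasive libraries and 191, 191 and 151 in core libraries. PGAM1, which moves the phosphate within phosphoglycerate, separated invasive from core (0.83 ± 0.39 SE, limma adjusted p = 0.141).

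ENO1 had 3385, 1604 and 713 FPKM in MK801 libraries, 2011, 4439 and 1578 in invasive libraries and 1114, 1148 and 863 in core libraries. ENO1 (chr1:8861000-8879250, minus strand), whose product is phosphoenolpyruvate, lay above core in all 3 invasive libraries, with MK801 replicate 3 the lowest of the 9 (1.22 ± 0.56 SE, limma adjusted p = 0.136). ENO2 had 218, 186 and 119.8 FPKM in MK801 libraries, 152, 271 and 129.9 in invasive libraries and 136, 193 and 133 in core libraries. ENO2, the enolase known from neurons, overlapped in each comparison (0.20 ± 0.35 SE, limma adjusted p = 0.654), and its difference was negative under 4 of the 6 scalings. PKM had 1011, 597 and 298 FPKM in MK801 libraries, 674, 1292 and 561 in invasive libraries and 402, 392 and 290.2 in core libraries. PKM (chr15:72199029-72231822, minus strand), the pyruvate kinase of the last step, separated invasive from core (1.14 ± 0.46 SE, limma adjusted p = 0.118).

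The lactate dehydrogenase subunits did not share in this pattern as FPKM. LDHA had 339, 227 and 211 FPKM in MK801 libraries, 249, 318 and 233 in invasive libraries and 262, 265 and 245 in core libraries. LDHA (chr11:18394388-18408425, plus strand), the subunit that favours lactate production, overlapped in all comparisons on the FPKM scale, with an invasive minus core difference of 0.04 ± 0.27 SE, limma adjusted p = 0.916. The 95% interval of that difference was -0.56 to 0.64. As TPM, LDHA averaged 779 ± 116 in MK801, 818 ± 10.3 in invasive and 1035 ± 52.6 in core libraries (SD, n = 3 each), and both lay below core without overlap. LDHB had 5.28, 1.91 and 3.30 FPKM in MK801 libraries, 1.86, 4.28 and 3.95 in invasive libraries and 3.92, 4.002 and 4.30 in core libraries. LDHB, the subunit that favours lactate use, was near 4 FPKM in core and scattered in the other groups (-0.27 ± 0.31 SE, limma adjusted p = 0.513). Its level is uncertain, since AC010197.2, at 0 FPKM in all 9 libraries, shares 33.4% of its exon bases. Of the 2 signs, that of LDHB was negative under all 6 scalings and that of LDHA was mixed. With the GC trend removed, the invasive minus core difference of LDHA was 0.39, against 0.37 for GAPDH.

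The lactate transporters lay on opposite sides of core in invasive cells. SLC16A3 had 64.96, 41.3 and 22.3 FPKM in MK801 libraries, 45.4, 75.4 and 39.9 in invasive libraries and 29.4, 25.5 and 19.6 in core libraries. SLC16A3 (chr17:82228397-82261129, plus strand) encodes the transporter MCT4, known for lactate export, and lay above core in each invasive library (1.04 ± 0.38 SE, limma adjusted p = 0.109), with a negative sign under 1 of the 6 scalings, TPM with the GC trend removed. SLC16A1 had 19.6, 24.05 and 39.4 FPKM in MK801 libraries, 17.4, 27.4 and 24.1 in invasive libraries and 33.9, 38.5 and 35.5 in core libraries. SLC16A1 (chr1:112911847-112957013, minus strand) encodes MCT1, which carries lactate either way, and lay below core in each invasive library (-0.65 ± 0.28 SE, limma adjusted p = 0.126), a sign that held under all 6 scalings. SLC2A1 had 951, 785 and 388 FPKM in MK801 libraries, 604, 787 and 432 in invasive libraries and 422, 447 and 330.3 in core libraries. SLC2A1, the glucose transporter GLUT1, overlapped between invasive and core because invasive replicate 3 (432 FPKM) lay below core replicate 2 (447 FPKM) (0.57 ± 0.38 SE, limma adjusted p = 0.258). SLC2A3 had 55.6, 83.9 and 66.7 FPKM in MK801 libraries, 65.6, 50.9 and 53.1 in invasive libraries and 66.6, 63.6 and 61.7 in core libraries. SLC2A3, the glucose transporter GLUT3 known from neurons, overlapped in all comparisons as FPKM and lay below core in invasive cells as TPM.

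The PFKFB enzymes make and break down fructose bisphosphate of the regulatory kind, which activates phosphofructokinase. PFKFB3 had 39.4, 53.2 and 43.1 FPKM in MK801 libraries, 101, 60.7 and 61.2 in invasive libraries and 65.8, 34.1 and 42.6 in core libraries. PFKFB3, the form with strong kinase activity, was the only member whose MK801 libraries all lay on 1 side of invasive cells, below them (-0.67 ± 0.31 SE, limma adjusted p = 0.606), although as TPM those groups overlapped. PFKFB4 had 16.7, 11.3 and 4.93 FPKM in MK801 libraries, 10.9, 17.6 and 10.1 in invasive libraries and 6.45, 7.29 and 5.79 in core libraries. PFKFB4 lay above core in each invasive library (0.85 ± 0.37 SE, limma adjusted p = 0.126), with a negative sign under TPM with the GC trend removed. PFKFB2 had 0.284, 1.45 and 1.64 FPKM in MK801 libraries, 1.54, 0.774 and 1.52 in invasive libraries and 1.36, 1.14 and 1.79 in core libraries. PFKFB2 was the lowest member and overlapped in each comparison.

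PDK1 had 1.16, 1.42 and 3.16 FPKM in MK801 libraries, 1.99, 1.54 and 2.56 in invasive libraries and 3.15, 2.94 and 4.39 in core libraries. PDK1 phosphorylates and so inactivates pyruvate dehydrogenase, and it lay below core in each invasive library (-0.57 ± 0.28 SE, limma adjusted p = 0.152), with a positive sign once the GC trend was removed from FPKM. PDHA1 had 11.1, 6.59 and 7.28 FPKM in MK801 libraries, 8.97, 8.79 and 7.04 in invasive libraries and 8.07, 7.49 and 8.19 in core libraries. PDHA1, the catalytic subunit it acts on, overlapped in each comparison, with an invasive minus core difference of 0.05 ± 0.22 SE, limma adjusted p = 0.871 and a 95% interval of -0.45 to 0.55. MAP3K15, on the other strand, covers 21.3% of the exon bases of PDHA1.

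The pentose phosphate enzymes had the highest median of the roles with at least 3 genes, 1.13. In invasive cells 4 of 5 lay wholly above and 1 wholly below core, where 32.0% and 32.8% of all tested genes did. PGD had 81.4, 41.4 and 24.8 FPKM in MK801 libraries, 51.8, 82.97 and 49.7 in invasive libraries and 28.05, 23.8 and 21.9 in core libraries. PGD (chr1:10398592-10420144, plus strand), the phosphogluconate dehydrogenase of the oxidative branch, which makes NADPH, averaged 2.50-fold core in invasive libraries (1.26 ± 0.39 SE, limma adjusted p = 0.106). PGLS had 23.9, 14.4 and 6.45 FPKM in MK801 libraries, 16.9, 26.2 and 16.4 in invasive libraries and 10.7, 8.45 and 6.59 in core libraries. PGLS, the lactonase of that branch, was 2.31-fold core (1.11 ± 0.40 SE, limma adjusted p = 0.108).

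TKT had 120.1, 64.1 and 29.9 FPKM in MK801 libraries, 53.4, 102 and 55.2 in invasive libraries and 28.9, 28.5 and 23.1 in core libraries. TKT (chr3:53224707-53256052, minus strand), the transketolase that returns pentose carbon to glycolysis, had the largest invasive minus core difference of the 31 genes on the log2(FPKM + 1) scale. Its mean was 2.62-fold core in invasive and 2.66-fold in MK801 libraries, and neither group overlapped core. The low gene ALDOA had a larger ratio of means in invasive cells, 2.82-fold. The differences were 1.30 ± 0.45 SE, limma adjusted p = 0.106 and, for MK801 minus core, 1.17 ± 0.45 SE, limma adjusted p = 0.235. TALDO1 had 38.9, 15.02 and 11.02 FPKM in MK801 libraries, 21.9, 37.4 and 21.9 in invasive libraries and 12.9, 10.1 and 11.3 in core libraries. TALDO1, the transaldolase of the same branch, separated invasive from core (1.13 ± 0.40 SE, limma adjusted p = 0.108). RPIA had 6.38, 10.6 and 13.5 FPKM in MK801 libraries, 9.47, 8.45 and 8.13 in invasive libraries and 9.86, 12.5 and 11.3 in core libraries. RPIA (chr2:88691644-88750935, plus strand), which isomerises ribose phosphate, was the exception, below core in all 3 invasive libraries (-0.33 ± 0.26 SE, limma adjusted p = 0.322). The signs of PGD, PGLS, TKT and TALDO1 held under all 6 scalings, while that of RPIA turned with the covariate of genes detected.

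MK801 against core cells rested on MK801 libraries that lay far apart. By value 23 of the 31 genes were higher and 8 lower, with a median of 0.54 against 0.00 over all tested genes, and 0.16 to 0.98 with any 1 library left out. The members' median was 0.17 as TPM, 0.12 with the GC trend removed and 0.015 with genes detected as a covariate. The FPKM of only PFKM and TKT lay above core without overlap (2 genes, 6.45% of the members, against 9.89% of all genes). Below core lay 0 (against 8.82% of all genes). For PFKM the lowest MK801 and the highest core library were nearly tied (6.703 against 6.700 FPKM). Limma called 0 genes in the fit of 9 libraries (0.0%), with 3 members and 2509 genes in all at p under 0.05 before adjustment, and voom called 0 as well. With the replicate numbers as a block and these groups alone limma called 0 members, where 0.954% of all genes passed. In the fit of 9 libraries the smallest adjusted p of a member was 0.235, shared by HK1, PDK1 and TKT, whose differences were 0.74 ± 0.32, -0.67 ± 0.28 and 1.17 ± 0.45. As TPM, HK1, ALDOA and TKT lay above core without overlap (7.95% of all genes did) and PGK1, LDHA and LDHB below (7.19% of all genes did). Without MK801 replicate 3 the median was 0.98 and 17 members passed, 15 higher and 2 lower (SLC16A1 and PDK1), where 50.2% of all genes passed, 25.2% higher and 24.9% lower. This comparison shares the core libraries with that of invasive against core, so agreement between them is not counted here. Under the 6 scalings, ALDOA, HK1, PGD, TKT and TPI1 stayed higher, HK2, LDHB, PDK1 and SLC16A1 stayed lower, and 22 genes had mixed signs.

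In MK801 against invasive cells, by value 7 genes were higher and 24 lower, with a median of -0.20 against -0.00 over all tested genes. PFKFB3 alone lay below invasive without overlap (1 gene, 3.23% of the members, against 5.63% of all genes), and 0 lay above (against 5.22% of all genes). Limma called 0 genes (0.0%), with 0 members and 978 genes in all at p under 0.05 before adjustment, and voom called 0 as well. The smallest adjusted p of a member was that of PFKFB3. As TPM, PFKL and PGLS lay below invasive without overlap (9.89% of all genes did). Under the 6 scalings 18 genes stayed lower, HK1, SLC2A1, SLC2A3, SLC16A1 and RPIA stayed higher, and 8 were mixed. With any 1 library left out, the members' median ran from -0.47 to 0.01. The upper end was reached without MK801 replicate 3, where 18 members were higher and 13 lower.

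The MK801 libraries did not lie together. Of the 31 genes, 16 were highest in invasive replicate 2 and 8 in MK801 replicate 1, the libraries with the fewest genes detected, while 11 were lowest in core replicate 3 and 10 in MK801 replicate 3, which detected the most genes of their groups. The members took 3.31, 2.47 and 1.85% of the FPKM sum in MK801 libraries, 2.95, 4.50 and 2.52% in invasive libraries and 2.41, 2.32 and 2.06% in core libraries. GAPDH and ENO1 together were 52.4, 43.6 and 36.3% of that in MK801, 47.7, 56.5 and 47.4% in invasive and 44.2, 44.8 and 42.1% in core libraries. LDHA was 2.29, 2.74 and 4.90% of it in MK801, 2.76, 1.84 and 3.21% in invasive and 4.42, 4.20 and 5.19% in core libraries. Each invasive library thus gave GAPDH and ENO1 a larger and LDHA a smaller part of the set than any core library. With the GC trend removed, the invasive minus core differences were 0.37 for GAPDH, 0.93 for ENO1 and 0.39 for LDHA. On that scale LDHA was thus not set apart from GAPDH.

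The difference between fractions moved with the GC content of the transcripts. Among the 31 genes, Spearman's rho between GC content and the invasive minus core difference was 0.67 (n = 31 genes), against 0.76 over 11841 tested genes of known GC content. For MK801 minus core it was 0.61, against 0.77, and for MK801 minus invasive -0.44, against -0.25. These genes share their libraries and are not independent. The 24 genes higher in invasive cells had a median GC content of 54.9% and the 7 lower genes 45.8%, with 53.1% over all members and 48.4% over all tested genes. The fragment-weighted mean GC content was 53.6, 52.4 and 49.7% in MK801, 52.4, 53.7 and 51.9% in invasive and 50.3, 50.1 and 49.0% in core libraries. The part of GC content in these differences was not tested.

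**Figure D3:**
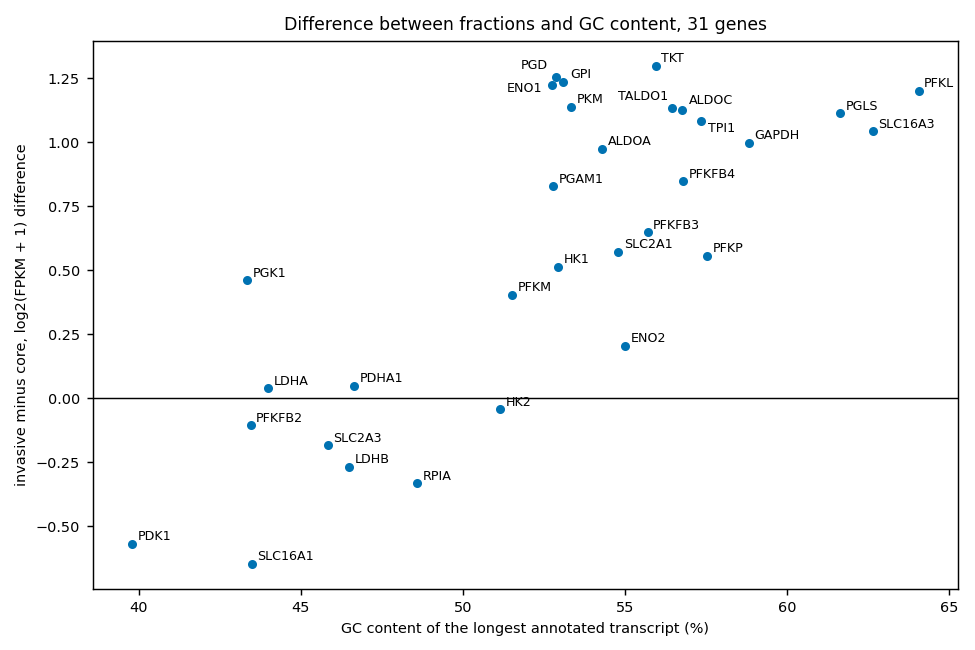
Invasive minus core difference of each gene, in log2(FPKM + 1), against the GC content of its longest annotated transcript in percent (points: the 31 genes). Genes under 50% GC lie near or below 0 apart from PGK1 at 0.46, and the genes with differences over 1 all have more than 50% GC.

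The scaling of the values changed the size of these differences. TPM shifted the median of all tested genes to -0.30 for invasive minus core and to -0.28 for MK801 minus core, and the share of genes higher in invasive cells from 49.1% to 36.3%. On that scale the members' invasive minus core median was 0.28. As TPM, 15 members lay above core in invasive cells without overlap and 6 below, against 20.6% and 43.1% of all genes, the 6 being LDHA, LDHB, SLC2A3, SLC16A1, PDK1 and RPIA. Removing the GC trend gave a median of 0.31, and the covariate of genes detected gave 0.11. Genes detected did not overlap between invasive (15975 to 19140) and core libraries (20322 to 21414). That covariate therefore takes up part of the difference between the fractions, and the 2 cannot be told apart. Under FPKM, TPM, GC trend removed, both together, genes detected and voom, 11 of the 31 genes stayed higher in invasive cells (GPI, PFKL, ALDOC, TPI1, PGAM1, ENO1, PKM, PGD, PGLS, TKT and TALDO1), LDHB and SLC16A1 stayed lower, and 18 were mixed.

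**Figure D4:**
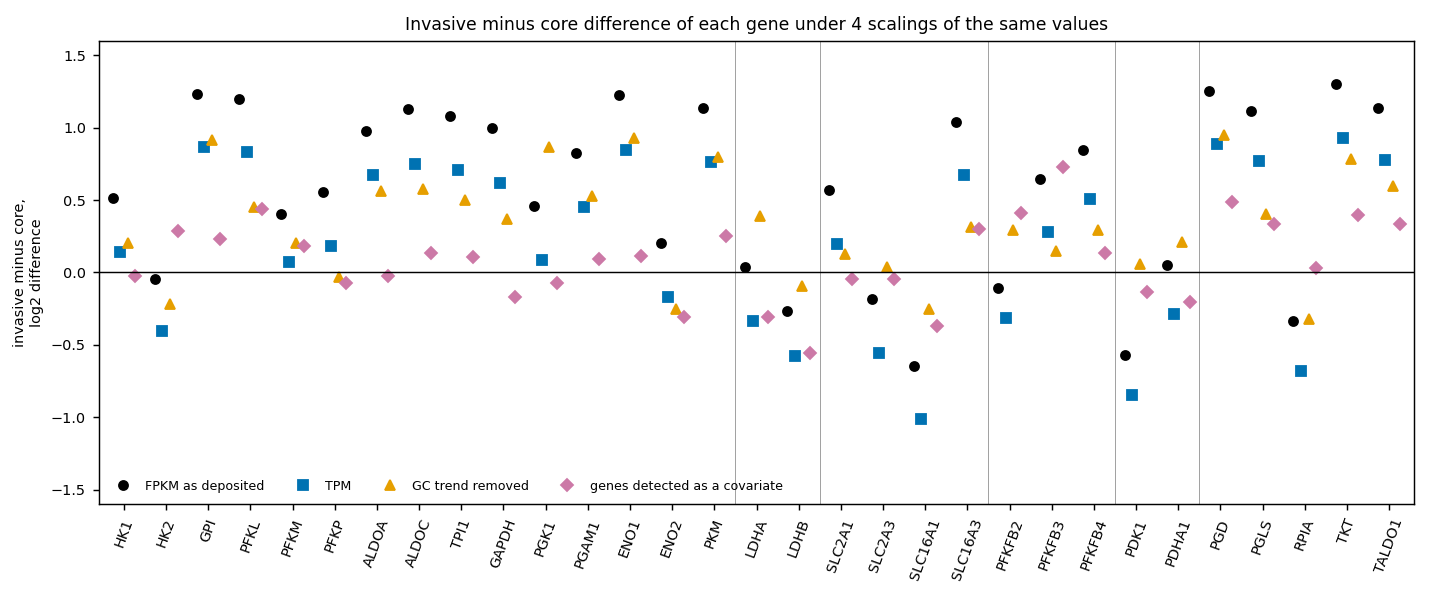
Invasive minus core difference of each gene in log2 units under FPKM as deposited, TPM, FPKM with each library's GC trend removed, and FPKM with a covariate of genes detected (1 symbol each; vertical lines part the roles). Most differences shrink toward 0 from the FPKM symbols to the others, while PGD and TKT lie at 0.49 and 0.40 at their lowest and SLC16A1 stays below 0.

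Ratios of related genes within a library do not depend on how that library was scaled, although they can still move with GC content. Of 12 ratios, 2 were above and 3 below core in invasive cells without overlap, and 0 above and 2 below core in MK801 cells. With 3 against 3 libraries a 2-sided exact permutation test cannot give p below 0.1, which these ratios reached, so none of the 12 passed 0.05, adjusted or not. How often ratios of other gene pairs separate was not counted, so the separation is not particular to these pairs as far as is known. Of single genes, 64.8% separated invasive from core and 18.7% MK801 from core. The ratio of SLC16A3 to SLC16A1 was 3.31, 1.72 and 0.566 in MK801 libraries, 2.60, 2.75 and 1.66 in invasive libraries and 0.868, 0.661 and 0.553 in core libraries. Every invasive library thus held more MCT4 than MCT1 transcript and every core library less, and MK801 replicate 3 lay within the core range. The invasive minus core difference was 1.74 on the log2 scale, and 1.59 to 1.97 with any 1 library left out. With the GC trend removed, the invasive minus core differences of SLC16A3 and SLC16A1 were 0.31 and -0.25.

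The ratio of PFKL to PFKM was 6.83, 4.49 and 3.09 in MK801 libraries, 5.58, 8.14 and 5.80 in invasive libraries and 4.17, 3.86 and 3.25 in core libraries. The log2 difference between invasive and core was 0.78, without overlap. With the GC trend removed, the invasive minus core differences of PFKL and PFKM were 0.45 and 0.20. The ratio of ENO2 to ENO1 was 0.0643, 0.116 and 0.168 in MK801 libraries, 0.0758, 0.0610 and 0.0823 in invasive libraries and 0.122, 0.169 and 0.154 in core libraries. The ratio of SLC2A3 to SLC2A1 was 0.0585, 0.107 and 0.172 in MK801 libraries, 0.109, 0.0646 and 0.123 in invasive libraries and 0.158, 0.142 and 0.187 in core libraries. In every invasive library ENO2 was thus lower relative to ENO1, and SLC2A3 relative to SLC2A1, than in any core library. The mean log2 differences were -1.02 and -0.76, while MK801 libraries overlapped both control groups. With the GC trend removed, the invasive minus core differences were -0.25 for ENO2 against 0.93 for ENO1. For SLC2A3 and SLC2A1 they were 0.04 and 0.13, much nearer each other.

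The ratio of PDK1 to PDHA1 was 0.105, 0.216 and 0.434 in MK801 libraries, 0.222, 0.175 and 0.364 in invasive libraries and 0.390, 0.392 and 0.536 in core libraries. The kinase was lower relative to its target in invasive than in core cells, by -0.85 (log2), without overlap. With the GC trend removed, the invasive minus core differences of PDK1 and PDHA1 were 0.06 and 0.21. The ratio of HK2 to HK1 was 0.0824, 0.190 and 0.284 in MK801 libraries, 0.360, 0.152 and 0.312 in invasive libraries and 0.427, 0.291 and 0.446 in core libraries. In MK801 cells HK2 was lower relative to HK1 than in core, by -1.21 (log2), without overlap, while invasive libraries overlapped core. The ratio of ALDOC to ALDOA was lower in MK801 than in core libraries by -0.44, without overlap, but overlapped once 1 FPKM was added to each gene. The ratios of PFKP to PFKM, LDHA to LDHB, PFKFB4 to PFKFB3, PFKFB3 to PFKFB2 and TKT to TALDO1 overlapped in every comparison.

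**Figure D5:**
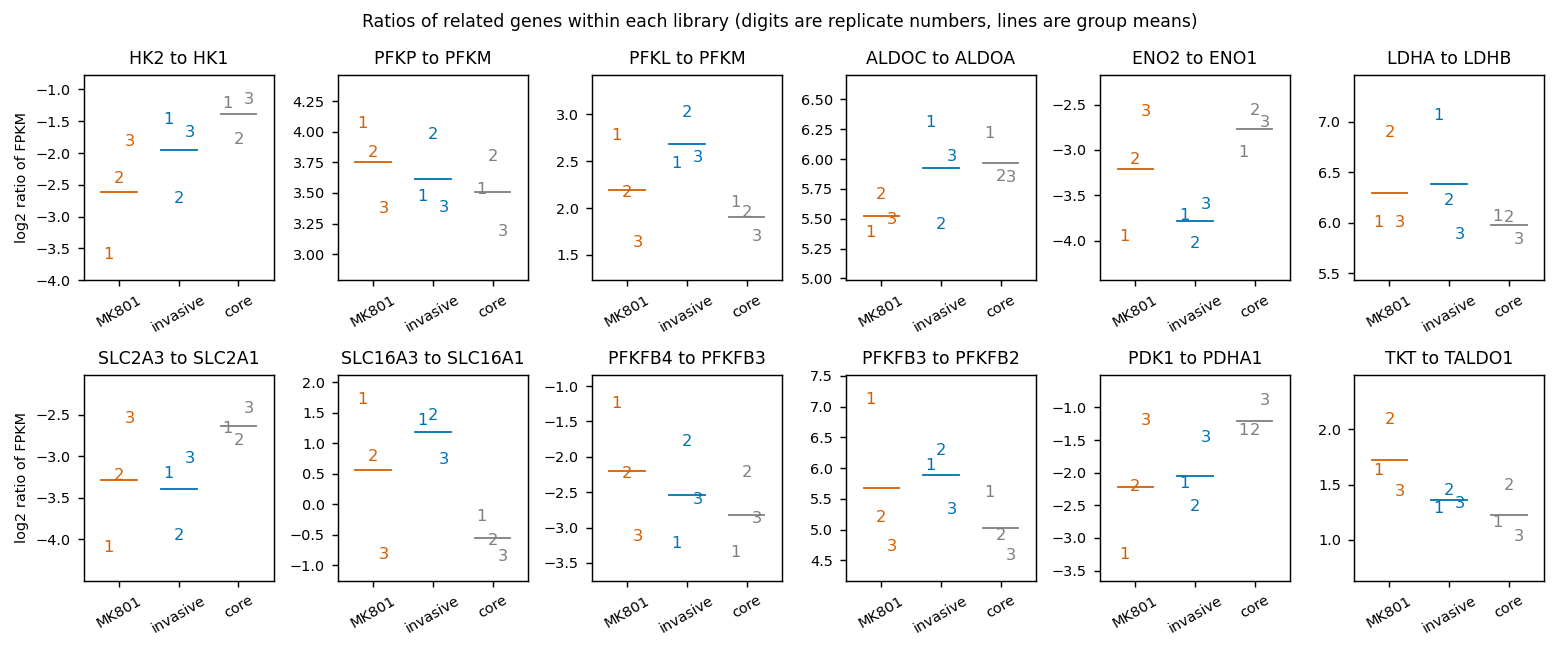
Ratio of FPKM between related genes within each library on a log2 axis (digits: replicate numbers; lines: group means of 3 libraries; groups in the order MK801, invasive, core). Invasive and core libraries do not overlap for PFKL to PFKM, ENO2 to ENO1, SLC2A3 to SLC2A1, SLC16A3 to SLC16A1 and PDK1 to PDHA1, and the MK801 libraries spread across both.

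Of 88 other genes of the pathway, 87 were found, 52 were tested, and 35 stayed under 1 FPKM in all libraries. None of the 52 passed in any comparison of the 9-library fit (0.0% of all genes), and 24 had p under 0.05 before adjustment for invasive minus core, 11 for MK801 minus core and 7 for MK801 minus invasive. For invasive against core, 29 were higher and 23 lower by value, with a median of 0.09. Without overlap 19 lay above and 15 below, where 32.0% and 32.8% of all tested genes did. As TPM 13 lay above and 22 below without overlap, where 20.6% and 43.1% of all tested genes did. BSG had 629, 437 and 176 FPKM in MK801 libraries, 481, 918 and 409.6 in invasive libraries and 233, 227 and 161 in core libraries. BSG, basigin, the partner that MCT1 and MCT4 need at the membrane, lay above core in each invasive library (1.46 ± 0.47 SE, limma adjusted p = 0.106).

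By the rule for naming other pathway genes, the genes with the highest differences included BSG and G6PC3, a glucose phosphatase, at 33.4 ± 12.8 against 11.7 ± 2.62 FPKM (SD, n = 3 each, 1.40 ± 0.49 SE, limma adjusted p = 0.107). The lowest were MXI1, an antagonist of MYC, at 10.6 ± 1.02 against 26.1 ± 5.04 FPKM (-1.21 ± 0.31 SE, limma adjusted p = 0.096), PDP1, the phosphatase that opposes PDK1, at 5.51 ± 1.47 against 13.7 ± 2.42 FPKM (-1.18 ± 0.35 SE, limma adjusted p = 0.106), and PGM2, a phosphopentomutase, at 5.16 ± 0.886 against 12.1 ± 0.859 FPKM (-1.10 ± 0.27 SE, limma adjusted p = 0.094). PDP1 and PDK1, which act in opposite directions on pyruvate dehydrogenase, were thus both below core by value. HIF1A had 6.50, 16.2 and 30.5 FPKM in MK801 libraries, 13.97, 13.3 and 19.02 in invasive libraries and 26.4, 33.1 and 35.5 in core libraries. HIF1A, a subunit of the hypoxia-inducible factor, was added outside the rule after its values were seen. Its invasive libraries lay below core (-0.996 ± 0.43 SE, limma adjusted p = 0.124). Of the 12 tested regulators, HIF1A among them, 5 were higher and 7 lower by value. Without overlap 2 of them lay above and 3 below core, where 32.0% and 32.8% of all tested genes did.

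For MK801 against core, the same rule named PYGB, brain glycogen phosphorylase, at 27.0 ± 9.98 against 14.3 ± 2.25 FPKM (0.82 ± 0.28 SE, limma adjusted p = 0.235), HIF1AN and ADPGK above, and DLD, the shared dihydrolipoyl dehydrogenase, at 4.14 ± 1.67 against 8.50 ± 0.860 FPKM (-0.93 ± 0.27 SE, limma adjusted p = 0.235), PGM2 and PYGL below. For MK801 against invasive, TXNIP, an inhibitor of glucose uptake, was at 256 ± 1.96 against 150 ± 49.7 FPKM (0.82 ± 0.30 SE, limma adjusted p = 0.471), with MPC2 also above. H6PD, the dehydrogenase that starts the pentose phosphate route in the endoplasmic reticulum, was at 32.1 ± 8.80 against 60.4 ± 7.97 FPKM (-0.92 ± 0.26 SE, limma adjusted p = 0.326), with MYC and DERA also below. TXNIP had 258, 257 and 254 FPKM in MK801 libraries, 123, 207 and 119 in invasive libraries and 173, 274 and 180.1 in core libraries. As deposited FPKM, the MK801 libraries were nearly equal for TXNIP, unlike for most of the 31 genes. On that scale they lay above all invasive libraries but within the range of core. The FPKM sums of the MK801 libraries ran from 233614 to 445633, so their TXNIP levels were not equal as TPM.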

How the data were processed

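The deposited table gives FPKM per gene as the authors scaled it, for 58735 genes and 9 libraries, each mapped by the column name in its label (0 value columns unmapped). HISAT2 2.0.5, the build GRCh38 and featureCounts 1.5.0-p3 are listed, per the submitters' processing notes, without settings. Median-of-ratios size factors of the deposited FPKM were 1 in all 9 libraries. FPKM times gene length gave whole fragments for 100% of values (tolerance 0.01 fragments). The depth of 15584610 to 54409666 fragments sets the precision of low genes: LDHB rested on 88 to 640 fragments per library.

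Genes with at least 1 FPKM in at least 3 libraries (11845) were fitted as log2(FPKM + 1) with limma 3.58.1 in R 4.3.3, 1 mean per group over 9 libraries, empirical Bayes moderation with a trend over mean level (6 residual degrees of freedom), and Benjamini-Hochberg adjustment over all tested genes (threshold 0.05). The test was checked on simulated data, with the outcome given beside the calls; its acceptance limits were eased after first runs fell short of them. A sign under the 6 scalings means under FPKM, TPM, each library's loess GC trend removed (span 0.3), TPM with that trend removed, genes detected as a covariate, and voom on recovered fragments with trimmed-mean scaling. GC content is that of the longest GENCODE transcript, and gene coordinates are on GRCh38. The exon bases of all 31 genes matched the authors' gene lengths, and no pseudogene named after a member reached 1% of its parent's fragments, the nearest being TPI1P1 at 0.776%.

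The members and lists were chosen with earlier results of these data known. Other pathway genes were named, per comparison, as up to 3 with the highest and 3 with the lowest difference among tested genes averaging 5 FPKM or more whose groups do not overlap, and 1 gene that this rule names is not reported here.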

Additional observations from a re-analysis of the deposited data

How the results depend on the processing

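No member passed between groups in the fits of all 9 libraries under pseudocounts of 0.1 and 0.5, no filter or a minimum of 5 FPKM. The same held with TPM, voom, the GC trend removed or genes detected as a covariate. Median-of-ratios size factors were 1 in all 9 libraries, so that setting only repeated the main fit. For invasive minus core, the count of members past the threshold was 16 with the 2 groups compared alone, 16 with TPM and the 2 groups alone, and 3 with the GC trend removed and the 2 groups alone. With the replicate number as a block it was 6 (GPI, PFKL, SLC16A3, PGD, PGLS and TKT), where 21.3% of all genes passed, 22 with the block and the 2 groups alone, and 7 with the GC trend removed as well. The deposited column names carry the same number for an invasive and a core library, which may mark 1 device, but no label states it. Same-numbered invasive and core libraries had correlations of deviations of -0.01, 0.24 and 0.44, and not every library matched its own number best, so whether the numbers pair the libraries cannot be settled here. The block gave no member past the threshold for either MK801 comparison.

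The members' invasive minus core median of 0.65 was 0.28 with TPM, also with the 2 groups alone, 0.31 with the GC trend removed, also with the block or the 2 groups alone, 0.11 with genes detected as a covariate, 0.0014 with TPM and the GC trend removed, and 0.19 with TPM and without the 2 libraries with the fewest genes detected. The MK801 minus core median of 0.54 was 0.17 with TPM, 0.12 with the GC trend removed, also with the block or the 2 groups alone, 0.015 with genes detected as a covariate, -0.17 with TPM and the GC trend removed, and 0.0015 with TPM and without those 2 libraries. The cause of these shifts was not tested.

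Leaving out 1 library at a time gave 0 to 14 members past the threshold for invasive minus core, 0 to 17 for MK801 minus core and 0 to 0 for MK801 minus invasive, with medians of 0.38 to 0.84, 0.16 to 0.98 and -0.47 to 0.01. Of the 31 signs for invasive minus core, 3 turned with TPM, 5 with the GC trend removed, 12 with genes detected and 10 with TPM and the GC trend removed, against 5, 5, 11 and 17 for MK801 minus core. Genes detected did not overlap between the control fractions, so that covariate cannot be told apart from the invasive minus core difference. Combinations of settings were chosen after seeing the data. The fewest fragments lay behind PFKFB2 (41 in its lowest library), LDHB (88) and RPIA (167), while the largest standard errors for invasive minus core were those of GAPDH (0.59) and ENO1 (0.56).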
